A study of Mus musculus with 6 samples.

Results

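The cycling Csf1r cells of the inflamed mouse synovium were defined on deposited counts of unique molecular identifiers (UMIs, each standing for 1 captured RNA molecule). The paper reports removal of ambient RNA, and its part in these counts was not tested. A member held at least 3 UMIs of Mki67 and Top2a together and at least 1 UMI of Csf1r, the receptor of the macrophage growth factor CSF1. The granule genes Ngp, Camp and Ltf had to stay below 1% of its UMIs and Elane, Mpo and Prtn3 below 0.5%, and Cd79a and Siglech had to be at 0. These criteria gave 1563 cells of 32953, a share of 4.74% (exact binomial 95% interval 4.52 to 4.98, counting error only). They left out 712 of 2275 cells that met the Mki67, Top2a and Csf1r limits. Because Mki67, Top2a and Csf1r chose the members, their levels and those of genes that go with them are given as a description, without a test.

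CD45+ synovial cells came from mice with antigen-induced arthritis, immunized with 10 μg methylated bovine serum albumin, challenged in the joint with 100 μg on day 21 and sampled 3 days later. Vehicle was given in 2 samples and 300 μg PEPITEM, an immunopeptide that limits leukocyte migration, in 4. The cell barcodes carry a library number from 1 to 6 that no source used here ties to a sample, so no cell had a known treatment and vehicle and PEPITEM were not compared. All values are therefore pooled over the libraries, with the range and the median of the 6 libraries, and no p-value is given.

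Blood monocytes arise in the marrow from cycling precursors that make granule proteins such as elastase and proteinase 3, and most stop dividing before they leave. Macrophages that live in the joint lining can renew themselves by division. A dividing cell first licenses replication origins, makes nucleotides and copies its DNA, and later condenses its chromosomes, attaches them to the spindle and degrades mitotic proteins.

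The genes of these steps passed together in the comparison given further on, and start sites of 4 of them are shown for that reason. Shown are 300 bases around the start (250 before, 50 after) of Mcm6, a helicase subunit, Rrm1, a subunit of the enzyme that makes deoxynucleotides, Cdc20, an activator of the anaphase ubiquitin ligase, and Racgap1, a component of the midbody, each on the strand of the gene. They were read from RefSeq for GRCm38.p6 and chosen as examples after their matches were seen. Capitals mark CCAAT (the box bound by NF-Y), TTTGAA (the core of the cell cycle homology region, CHR), and an E2F-like word, on either strand, and overlapping words merge. The E2F-like words were GCGGGAA as well as GGCGGGA and the longer words TTTGGCGC, TTTCGCGC, TTTGGCGG and TTTCGCGG.
Mcm6: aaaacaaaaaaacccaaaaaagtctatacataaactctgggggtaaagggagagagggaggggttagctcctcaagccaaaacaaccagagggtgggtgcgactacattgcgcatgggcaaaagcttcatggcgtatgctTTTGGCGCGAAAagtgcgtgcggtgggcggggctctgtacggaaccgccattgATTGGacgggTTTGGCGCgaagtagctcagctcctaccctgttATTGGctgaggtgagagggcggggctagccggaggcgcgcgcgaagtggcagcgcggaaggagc
Rrm1: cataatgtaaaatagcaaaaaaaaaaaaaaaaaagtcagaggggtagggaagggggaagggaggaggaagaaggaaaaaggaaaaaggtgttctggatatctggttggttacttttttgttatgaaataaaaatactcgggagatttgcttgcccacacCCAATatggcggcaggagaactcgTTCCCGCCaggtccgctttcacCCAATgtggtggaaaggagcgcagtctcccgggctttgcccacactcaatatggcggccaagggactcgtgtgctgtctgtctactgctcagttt
Cdc20: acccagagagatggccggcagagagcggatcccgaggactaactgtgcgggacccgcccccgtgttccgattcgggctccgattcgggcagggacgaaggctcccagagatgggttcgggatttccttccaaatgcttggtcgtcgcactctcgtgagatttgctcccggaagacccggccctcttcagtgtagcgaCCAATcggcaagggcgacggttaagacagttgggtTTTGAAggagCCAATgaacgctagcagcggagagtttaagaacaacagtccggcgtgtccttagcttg
Racgap1: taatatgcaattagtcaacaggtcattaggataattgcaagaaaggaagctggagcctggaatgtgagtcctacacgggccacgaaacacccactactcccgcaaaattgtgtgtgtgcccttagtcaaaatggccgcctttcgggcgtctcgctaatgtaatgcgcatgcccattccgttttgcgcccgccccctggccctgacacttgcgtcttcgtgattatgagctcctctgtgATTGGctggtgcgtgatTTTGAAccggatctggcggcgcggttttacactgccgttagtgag
They lie at chr1:128359656-128359955 (minus strand), chr7:102441445-102441744 (plus strand), chr4:118437294-118437593 (minus strand) and chr15:99651607-99651906 (minus strand). Over 27025 windows of this length, 37.8% held CCAAT, 18.1% TTTGAA and 14.4% an E2F-like word. Over the 6532 of 8441 genes tested for expression that had a window, these shares were 38.4%, 11.8% and 28.3%. Of 35 genes of DNA replication, 29 had a window, and 65.5% of these held CCAAT, 6.90% TTTGAA and 65.5% an E2F-like word. Of 48 genes of mitosis and chromosome condensation, 41 had a window, and 68.3% held CCAAT, 68.3% TTTGAA and 34.1% an E2F-like word. Tested genes without a window may differ from these, and no enrichment is read from the shares. A match describes the letters only and shows no binding.

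The share of members among all cells was 3.14% in the lowest library, 3.87% at the median and 6.22% in the highest. Libraries 5 and 6 held 513 and 469 members, and libraries 1 and 3 held 105 and 99. Members were deeply sequenced, with a median of 25460 UMIs and 5027 genes per cell against 14461 UMIs and 3625 genes in 7836 Csf1r cells that passed the same exclusions and had no Mki67 or Top2a UMI (called noncycling here). The depth of whole libraries was 47273569 to 123367661 UMIs. A further 1218 Csf1r cells with 1 or 2 such UMIs were left out of the comparison. No barcode sequence was shared between members, although 138 occurred in more than 1 library and 13 members carried such a sequence.

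The median member held 18 Mki67 and Top2a UMIs, 987 members (63.1%) held 10 or more and 173 (11.1%) exactly 3. Just inside the limit, at 3 UMIs, Birc5, a chromosomal passenger protein that was not in the rule, was at 38.1 CPM (UMIs of a gene scaled to a total of 1000000). Just outside, at 2 UMIs, it was at 19.8 CPM, and at 10 or more UMIs at 324 CPM. Rrm2, Stmn1 and Hmgb2 were also higher at 3 UMIs than at 2. Nusap1 went the other way, at 0.557 CPM at 3 UMIs and 2.70 CPM at 2 UMIs, with 212 CPM at 10 or more. Birc5 over all members was at 146 CPM in the lowest library, 232 at the median and 305 in the highest. In noncycling cells these values were 0.900, 2.17 and 4.04 CPM, so the populations did not overlap.

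For the label of monocytes and macrophages, 14 phagocyte genes were read, which summed to 19046 CPM in the members and 23263 CPM in noncycling cells. Detection alone says little in pooled counts of this depth, where neutrophil, T cell and fibroblast markers were also above 0. Lyz2, the lysozyme of phagocytes, was at 8652, 10122 and 11391 CPM in the lowest, median and highest library, against 7609, 10764 and 12015 CPM in noncycling cells, with overlap. Csf1r itself was lower, at 160, 197 and 277 CPM against 377, 428 and 478 CPM. In the whole cell 291 members (18.6%) held exactly 1 Csf1r UMI, and the median was 3 against 5 in noncycling cells. At 5000 UMIs drawn from each cell, 55.9% of members kept a Csf1r UMI against 81.9% of noncycling cells. In cells that should lack Csf1r the share was 4.94% among T cells (Cd3e with Cd3d or Cd3g, median depth 10580 UMIs) and 3.82% among Cd79a and Cd79b cells (7438 UMIs). Doublets had been removed by the authors, and no further doublet caller was run. Among members, 22 held Cd3e with Cd3d or Cd3g, and 3 held 1688 of the 1717 UMIs of 5 fibroblast genes, of which the highest held 1215.

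To compare cells at 1 depth, each was thinned to 5000 UMIs and assigned a state by at least 2 UMIs of named genes. A resident type cell held Lyve1, Cd163, Folr2 or Timd4, a monocyte type cell Ly6c2 or Ccr2 without these, and other cells none. These states are ranges of a few counts and not cell types. Of 1561 members deep enough, 1222 (78.3%, 76.2 to 80.3) were of monocyte type, 124 (7.94%) of resident type and 98 (6.28%) other. Noncycling cells were 47.1% monocyte type, 20.2% resident type and 13.1% other.

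The makeup of the members varied between libraries. Monocyte type cells made up 51.4% of them in library 1, 55.6% in library 3, 70.2% in library 4, 82.6% in library 5, 83.8% in library 2 and 84.6% in library 6. In each library this was above the monocyte type share of its noncycling cells, which ran from 38.6% to 58.6%. Resident type cells made up 25.7% in library 1, against 23.7% of its noncycling cells, and 2.31% in library 2, where they were 5 cells, against 8.99%. Outside library 1 they were below the noncycling share in each library. Other cells made up 14.3% against 11.5% in library 1 and 11.1% against 10.9% in library 3, and were below the noncycling share in libraries 2, 4, 5 and 6.

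**Figure D1:**
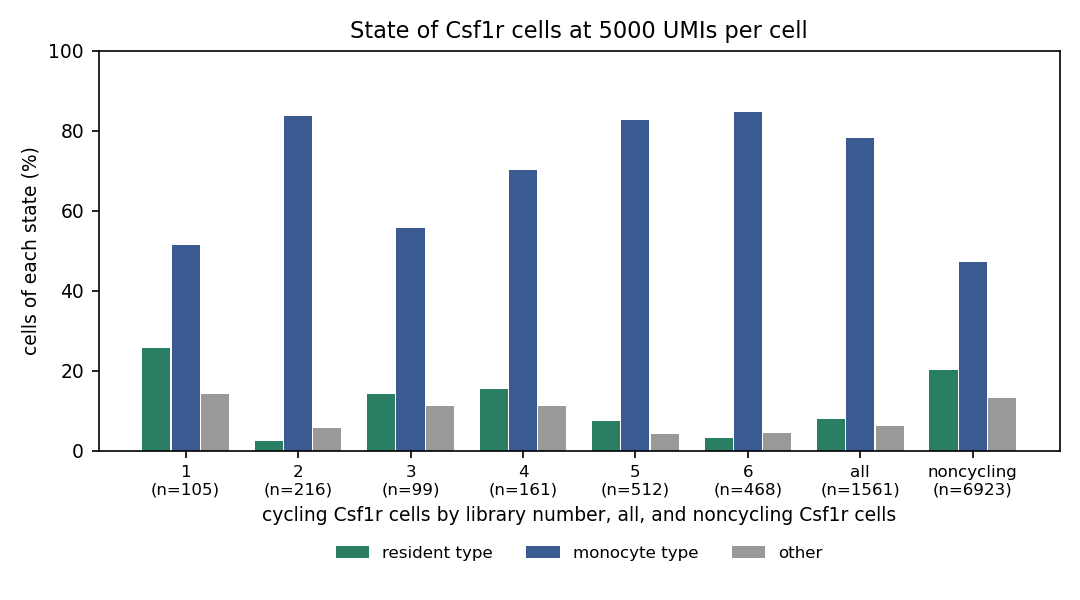
State makeup of cycling Csf1r cells by library, over all libraries and in noncycling Csf1r cells, as the percent of cells at 5000 UMIs, with a bar for each of 3 states. Monocyte type cells are the largest of these groups in each of the 6 libraries, from 51.4% to 84.6%.

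At equal depth, 6.28% of 7474 Csf1r cells had 3 or more Mki67 and Top2a UMIs (5.74 to 6.85). Counted without thinning, 9677 cells of at least 5000 UMIs held Csf1r, and the share was 16.1% of these. Of the states given, monocyte type cells had the highest share, 10.8% of 3620 (9.78 to 11.8). The share was 1.94% of 1650 resident type cells (1.33 to 2.73) and 1.03% of 871 other cells (0.474 to 1.95). The background of this measure was read from neutrophils with 10 or more Retnlg UMIs, few granule UMIs and no Csf1r. At the same depth 18 of 2018 (0.892%, 0.529 to 1.41) reached 3 UMIs and 69 held at least 1 (median depth 6608 UMIs before thinning). The gate did not exclude cycling cells, and whether the 18 were cycling was not tested. The intervals of other cells and of resident type cells both overlapped that background. They cover counting error only, and an overlap is not a test, so no level is read from it. By library the share ran from 0.950% to 3.70% in resident type and from 0% to 2.5% in other cells. As a description of counts that the rule chose, 35 of the 98 other members held 10 or more Mki67 and Top2a UMIs, and at 5000 UMIs these members had means of 10.7 replication and 6.99 mitosis UMIs against 1.34 and 1.81 in noncycling cells. With Csf1r counted in the whole cell, the share of other cells was 2.50%.

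By library, the share of monocyte type cells was 3.72% in library 1, 4.37% in library 4, 4.67% in library 3, 11.8% in library 2, 15.2% in library 6 and 15.6% in library 5. There was no library between 4.67% and 11.8%. Libraries 2, 5 and 6 also held the most cells, 5809, 9345 and 7539 against 2919 to 3996, and the lowest median depths over all cells, 10768, 9923 and 11237 UMIs against 13052.5 to 14001. The part of cell number and depth in these shares was not tested beyond the thinning.

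**Figure D2:**
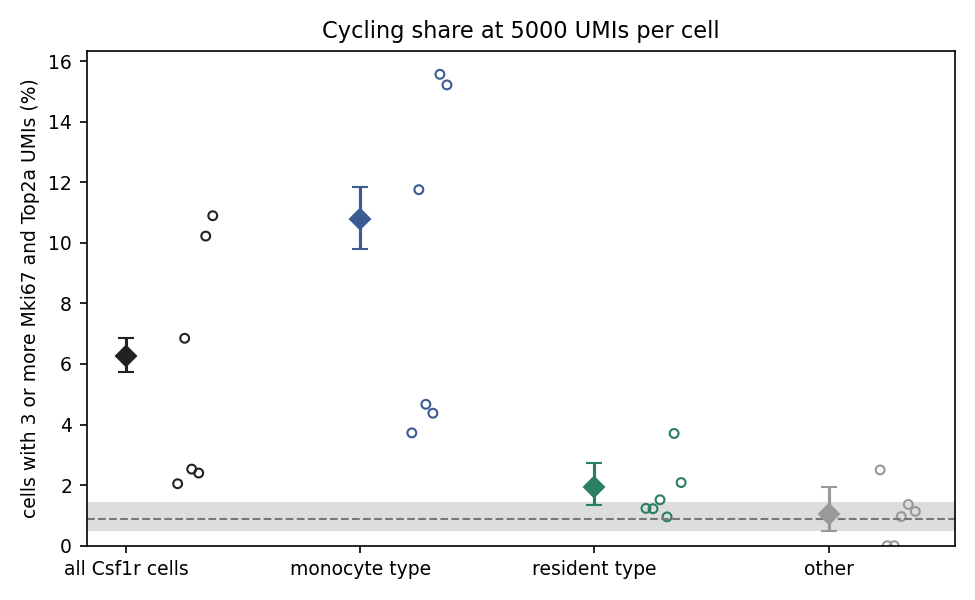
Percent of Csf1r cells with 3 or more Mki67 and Top2a UMIs at 5000 UMIs per cell. Diamonds are all libraries pooled with exact binomial 95% intervals, circles are the 6 libraries in number order, and the grey band and dashed line are the neutrophil background of 0.892%. Monocyte type cells lie at 10.8%, and the interval of other cells overlaps the background.

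Expression was compared between members and noncycling cells over 8441 genes at 10 CPM or more in either. A gene passed when its pooled level differed at least 2-fold on log2(CPM + 1), with the same direction in all 6 libraries. In this way 870 genes (10.3%) were higher and 630 (7.46%) lower in the members, and the median log2 ratio was 0.10. Since the contrast is the one that chose the cells, nothing is read from these counts. Without cells that held a UMI of the early granule genes Elane, Mpo, Prtn3 or Ctsg, 368 genes were higher and 101 lower, and the median of the MHC class II list went from -1.13 to 0.62.

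Genes of DNA replication were higher throughout. All 14 genes of origin licensing passed, with a median log2 ratio of 3.11, as did all 13 genes of the replication fork, with 3.22. All 7 tested genes of nucleotide synthesis passed with 4.49. Rrm2, the regulated subunit of the enzyme that makes deoxynucleotides, was at 112, 154 and 198 CPM in the lowest, median and highest library, against 0.507, 0.584 and 1.17 CPM. Pcna, the clamp of the replication fork, was at 139, 158 and 177 CPM against 39.8, 47.0 and 61.5 CPM. The populations did not overlap for either gene. For genes near or below 1 CPM in noncycling cells, such as Rrm2, the size of the ratio depends on the pseudocount. The median of origin licensing genes was 2.10 with a pseudocount of 10 CPM and 1.85 without cells that held a UMI of the early granule genes.

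Genes of mitosis were also higher. All 16 genes of the kinetochore and its checkpoint passed, with a median log2 ratio of 4.70, and all 13 of the spindle and midbody, with 4.43. All 12 genes of chromosome condensation passed, a list that holds Mki67 and Top2a. Of 7 genes of mitotic exit 6 passed, with a median of 1.92. Kif11, a spindle motor, was at 51.2, 109 and 138 CPM against 0.585, 1.07 and 1.38 CPM, without overlap. All 10 histone genes passed with a median of 5.13. Hist1h2ap was at 149, 852 and 1276 CPM against 1.61, 11.3 and 18.1 CPM, also without overlap. The median of kinetochore genes was 2.46 with a pseudocount of 10 CPM and 3.68 without cells that held a UMI of the early granule genes.

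Of 14 tested cyclins, CDKs and CDC25 phosphatases 10 were higher. Ccna2, the cyclin of S phase and G2, was at 70.5, 104 and 124 CPM against 0.293, 0.388 and 1.17 CPM. Ccnd3, the most abundant D cyclin of the members, did not pass, at 150, 186 and 228 CPM against 86.1, 128 and 183 CPM, with overlap. Of 9 tested CDK inhibitors and quiescence genes 2 were higher, Cdkn2c and Cdkn2d, inhibitors of CDK4 and CDK6. Cdkn2c was at 37.9, 51.4 and 56.6 CPM against 4.18, 5.92 and 7.89 CPM. Cdkn1a, the p53 target p21, was at 420, 482 and 534 CPM against 417, 489 and 611 CPM, which overlap.

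Outside the lists, the highest ratios at 50 CPM or more were those of 2810417H13Rik (log2 ratio 6.99), Hmmr (5.67), Casc5 (5.63), Pbk (5.59) and Spc24 (5.52). Casc5 and Spc24 encode kinetochore proteins, and Hmmr a spindle protein. Stmn1, which destabilizes microtubules, was the most abundant of the 12 genes named this way, at 595, 820 and 907 CPM against 8.73, 14.6 and 30.8 CPM.

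**Figure D3:**
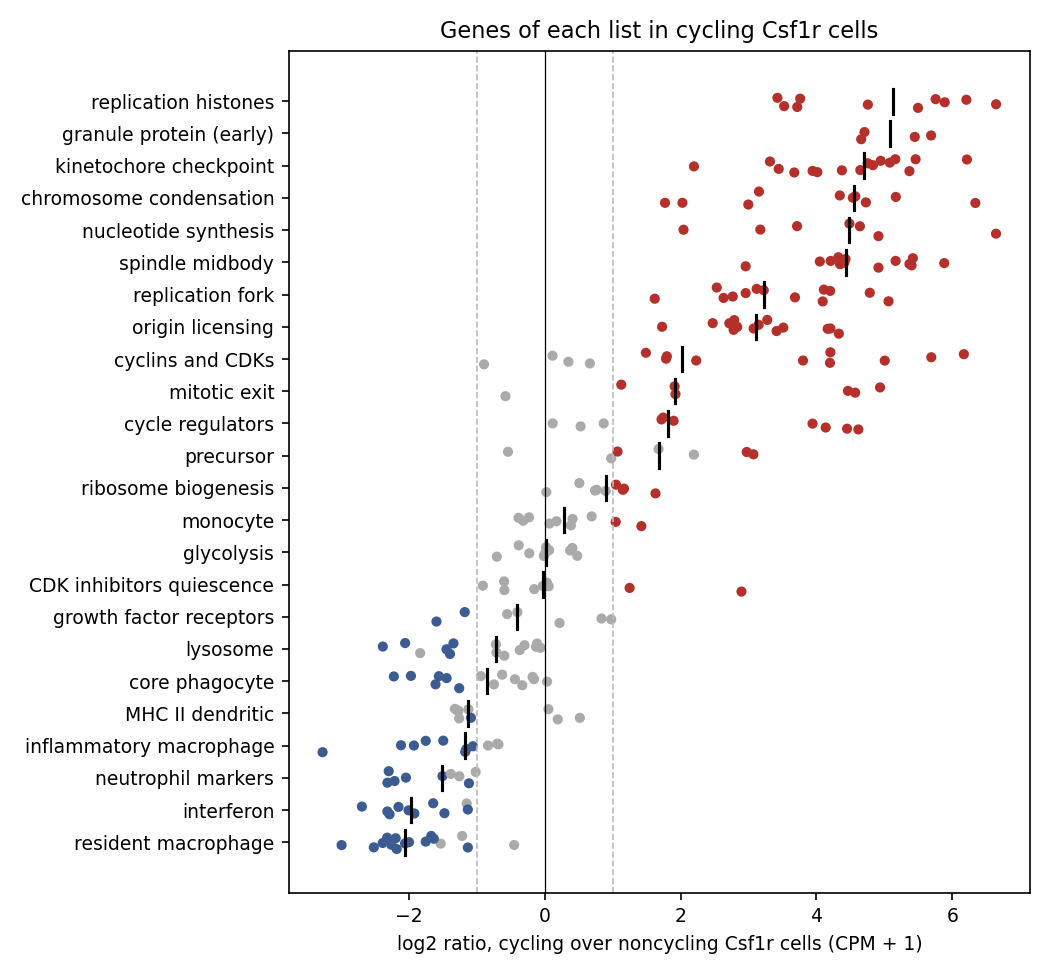
Log2 ratio of each tested gene, cycling over noncycling Csf1r cells (CPM + 1), by list. Points are genes, red passed as higher, blue as lower and grey passed neither, black bars are list medians, and Mki67 and Top2a are not drawn. Medians run from -2.06 for resident macrophage genes to 5.13 for histones.

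Genes of mature macrophages were lower in the members. Of 17 resident macrophage genes 14 were lower, with a median log2 ratio of -2.06. C1qa, a complement subunit, was at 112, 261 and 586 CPM against 612, 971 and 1472 CPM, without overlap. Of 11 tested genes of inflammatory macrophages 8 were lower and of 10 interferon-induced genes 9. Apoe, the lipid carrier, had one of the lowest ratios outside the lists, at 230, 498 and 1516 CPM against 1513, 2847 and 4090 CPM, and its highest library of members just passed the lowest of noncycling cells. Of 14 lysosome genes 5 were lower and of 11 glycolysis genes none passed in either direction. The state makeup of the members moved with these lists, as given above. With noncycling cells reweighted to the state makeup of the members, the median of resident macrophage genes was -1.19 and that of interferon genes -2.06 in place of -1.97. Without cells that held a UMI of Elane, Mpo, Prtn3 or Ctsg, the median went from -2.06 to -0.38 for resident macrophage genes, from -1.18 to -0.25 for inflammatory macrophage genes and from -1.97 to -0.997 for interferon genes.

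Neutrophil RNA moved with these comparisons. Summed over 9 neutrophil genes, members were at 6832 CPM and noncycling cells at 32145 CPM, and 6 of the 9 were lower. S100a9, the most abundant of them, was at 1732, 3232 and 4039 CPM in members against 8188, 15873 and 20704 CPM. At least 10 Retnlg UMIs were in 9.53% of members and 29.8% of noncycling cells. Without those cells 778 genes were higher and 648 lower, and the median of interferon genes was -2.25. The part of neutrophil RNA in the lower genes was not tested further.

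Markers of other cell types were low in the members. The rule required Cd79a and Siglech at 0 in both populations, so low B cell and plasmacytoid sums were in part set by it. Summed levels were 171 CPM for B cell genes, 37.2 CPM for T and NK cell genes, 41.3 CPM for fibroblast genes, 8.93 CPM for mast cell and basophil genes, 3.15 CPM for erythroid genes, 2.60 CPM for plasmacytoid genes and 1.68 CPM for platelet genes. In noncycling cells B cell genes were at 105 CPM and T and NK cell genes at 12.7 CPM. Members were higher in 5 libraries for the first and in all 6 for the second, and pooled sums of the other lists were lower in members. The fibroblast sum of members was 0.429, 7.41 and 429 CPM in the lowest, median and highest library. Ighm, the heavy chain of IgM, made up 161 CPM of the B cell sum of members and passed as higher, as did Nkg7, a granule protein of cytotoxic cells, at 16.0 CPM. Their part in the results was not tested.

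Of the 14 phagocyte genes 6 were lower and none higher, with a median log2 ratio of -0.85. Without cells that held a UMI of the early granule genes this median was -0.47. Of 7 tested growth factor receptors Csf1r and Csf3r, the receptor of G-CSF, were lower. Of 9 tested genes of ribosome biogenesis 4 were higher, and of 10 cell cycle regulators 7. Of 9 tested MHC class II and dendritic genes 1 was lower, with a median of -1.13.

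Of 10 monocyte genes, 2 were higher. Ly6c2, a surface protein of classical monocytes, was at 1345, 1704 and 2375 CPM in members against 374, 777 and 1190 CPM, without overlap. Chil3 also passed, and the other 8 passed in neither direction. Ly6c2 chose the monocyte type, which was more frequent among members. Within monocyte type cells none of the 10 genes was at least 2-fold higher or lower in cycling cells, with a median log2 ratio of -0.02 and a sum that was higher in 3 of 6 libraries. Of 7 tested precursor genes 3 were higher. Myb, a transcription factor of precursors, was at 9.79, 16.3 and 28.6 CPM against 0.540, 1.67 and 3.73 CPM, without overlap.

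The granule genes of early myeloid precursors were higher although the rule limits 3 of them. Prtn3, proteinase 3, was at 239, 444 and 710 CPM in members against 5.62, 16.0 and 42.0 CPM. Elane, neutrophil elastase, was at 114, 153 and 235 CPM against 0.450, 0.990 and 7.30 CPM, and Ctsg, cathepsin G, was not in the rule and was at 67.4, 173 and 212 CPM against 0.135, 2.53 and 6.48 CPM. None of these overlapped. At equal depth 59.9% of members held a UMI of Elane, Mpo, Prtn3 or Ctsg against 7.77% of noncycling cells. By state the shares were 68.9% against 14.1% in monocyte type, 28.6% against 4.19% in other and 1.61% against 0.286% in resident type cells.

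Monocyte type members were then split by these UMIs, a split added after the data had been seen. Of 1222, 842 held such a UMI at 5000 UMIs and 380 did not. Among monocyte type Csf1r cells the cycling share was 31.1% of 840 with these UMIs (28.0 to 34.3) and 4.64% of 2780 without (3.89 to 5.49). By library it ran from 17.0% to 35.4% with and from 1.17% to 7.39% without. The rule limits 3 of the 4 genes, and 287 cells that met the Mki67, Top2a and Csf1r limits exceeded that limit, so these shares are a description only.

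Members without these UMIs still carried the cycle genes. Per cell at 5000 UMIs they had a mean of 9.13 UMIs of 35 replication genes and 19.1 of 36 mitosis genes, against 18.2 and 19.1 in members with them. Their Csf1r level was 198 CPM and their Lyz2 level 12889 CPM, against 132 and 10965 CPM. Cd74, the chaperone of MHC class II, was at 2938 CPM without and 199 CPM with these UMIs. The same direction was seen in noncycling monocyte type cells, at 6126 and 1151 CPM. Within a state, genes were called at 2-fold on the pooled level alone. On both sides of the split all kinetochore, spindle, origin licensing and replication fork genes were at least 2-fold higher in cycling cells. Many of the kinetochore and spindle genes could reach 10 CPM only in cycling cells, so nothing is read from their count. The backgrounds of these comparisons were 10.9% of genes higher and 5.08% lower with, and 7.75% higher and 3.41% lower without these UMIs. Markers of other cell types moved in both comparisons. Neutrophil genes summed to 10943 CPM in cycling and 26283 CPM in noncycling cells without these UMIs, and to 3735 and 11693 CPM with them. Fibroblast genes summed to 126 and 1.44 CPM without them, so those tested reached 10 CPM only in cycling cells. Over all members, 3 cells held 1688 of the 1717 fibroblast UMIs. The part of these markers in these results was not tested.

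Interferon-induced genes were lower on both sides, 10 of 10 with and 9 of 10 without these UMIs. Isg15, a ubiquitin-like protein induced by interferon, was at 81.0 CPM in cycling and 323 CPM in noncycling cells without them. Of the MHC class II and dendritic genes 5 of 5 tested were lower with them, and 4 of 8 were lower and 1 higher without them.

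The states differed in how the MHC class II genes went. In monocyte type cells, where 10.8% of genes were higher and 7.18% lower, Cd74 was at 550, 1315 and 4131 CPM in cycling cells against 2869, 5007 and 9131 CPM, lower in all 6 libraries. There the 9 neutrophil genes, all at least 2-fold lower, summed to 5853 CPM in cycling and 24235 CPM in noncycling cells. Leaving out every cell with such a granule UMI in its whole count brought the log2 ratio of Cd74 in monocyte type cells from -2.43 to -0.09. In resident type cells, where 3.43% were higher and 1.21% lower, it was at 3081, 6203 and 11368 CPM in cycling cells against 2025, 2670 and 3646 CPM, higher in all 6. H2-Aa, an MHC class II chain, was at 1320, 2438 and 3951 CPM against 813, 1089 and 1381 CPM in resident type cells. Of 10 tested genes of the MHC class II and dendritic list 9 were higher in resident type members, Zbtb46, a transcription factor of dendritic cells, among them at 42.2 against 11.3 CPM. The 124 resident type cells were few, and library 2 held 5 of them. In the same comparison the 9 neutrophil genes summed to 10761 CPM in cycling and 22811 CPM in noncycling cells, lower in all 6 libraries with 6 genes at least 2-fold lower. The 6 erythroid genes were all at 0 in cycling cells and summed to 60.9 CPM in noncycling cells. By library the noncycling sum was uneven, at 0, 0.426 and 447 CPM in the lowest, median and highest library. The part of these markers in the MHC class II levels was not tested.

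Resident type members carried weaker cycle programs. Of them 51 (41.1%) had exactly 3 Mki67 and Top2a UMIs and 24 had 10 or more. At 5000 UMIs they had a mean of 2.89 UMIs of replication genes and 3.74 of mitosis genes, against 15.4 and 19.1 in monocyte type members and 1.34 and 1.81 in noncycling cells. Of 16 kinetochore genes 11 were tested, all at least 2-fold higher, with a median log2 ratio of 2.61. The 16 summed to 312 CPM in resident type members and 46.5 CPM in noncycling resident type cells. Most of those tested could thus reach 10 CPM only in cycling cells, and nothing is read from their count. Of 14 origin licensing genes 9 were tested and 2 were higher, with a median of 0.82. Summed over 17 resident macrophage genes, some of which chose the state, resident type members were at 11112 CPM. Noncycling resident type cells were at 15380 CPM. The sum was lower in members in all 6 libraries, with a median log2 ratio of -0.54. Csf1r was at 462, 648 and 818 CPM against 588, 789 and 819 CPM in noncycling resident type cells.

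**Figure D4:**
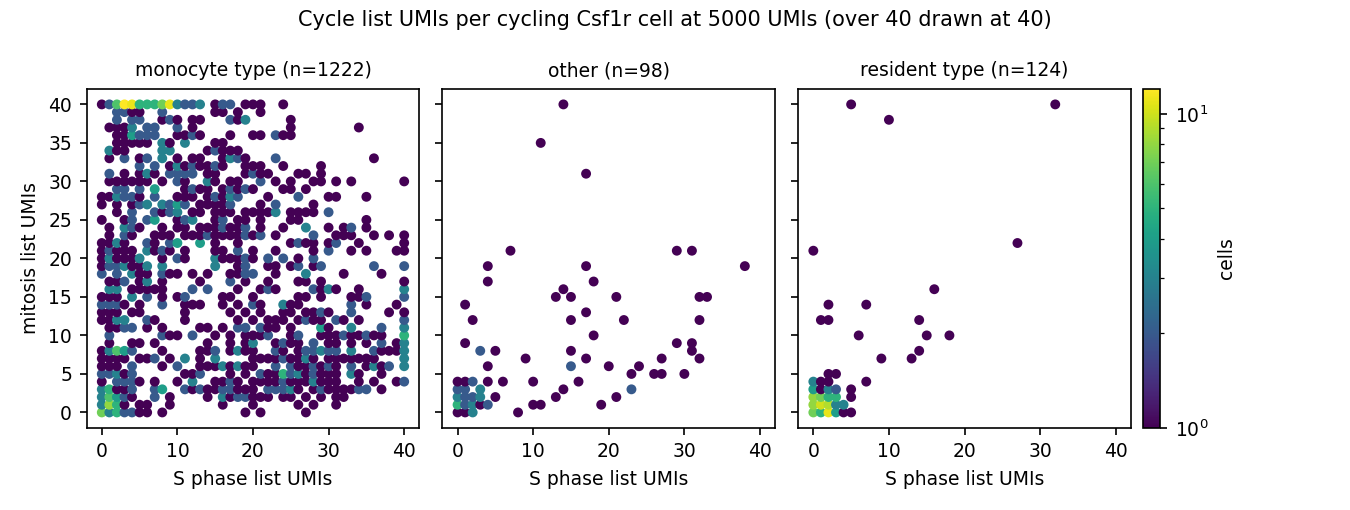
UMIs of 35 replication genes (x axis) and 36 mitosis genes (y axis) in each cycling Csf1r cell thinned to 5000 UMIs, by state. Each point is a pair of values, color is the number of cells on a log scale, and values over 40 are drawn at 40. Resident type cells, with means of 2.89 and 3.74 UMIs, gather at the origin.

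The D cyclins, which start the cycle, differed in level between members of the states. Ccnd1 was at 77.9 CPM in resident type, 85.2 CPM in other and 12.9 CPM in monocyte type members. Ccnd3 went the other way, at 222 CPM in monocyte type, 125 CPM in other and 92.1 CPM in resident type members. By library, Ccnd3 in monocyte type members was at 184, 212 and 236 CPM and in resident type members at 32.3, 81.9 and 162 CPM, which do not overlap. Ccnd1 was at 5.91, 16.8 and 41.5 CPM in monocyte type and at 62.6, 67.4 and 128 CPM in resident type members, which do not overlap either. These are levels of members only and are not read as a trait of cycling. Within monocyte type cells Ccnd1 was lower in cycling than in noncycling cells, with a log2 ratio of -1.33. Without cells that held a UMI of the early granule genes this ratio was 0.56.

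Other cells went against the label. Their Lyz2 level was 2278 CPM against 11530 CPM in monocyte type members. Flt3, a receptor of early and dendritic precursors, was at 147 CPM, Cd34, a surface protein of stem and precursor cells, at 97.8 CPM, and Sox4 at 168 CPM, each at least 4-fold above noncycling other cells. Mpo, myeloperoxidase, was at 394 CPM and Cd74 at 9380 CPM. Of 8 precursor genes 6 were at least 2-fold higher than in noncycling other cells, where 14.8% of genes were higher and 8.42% lower. Markers of other cell types moved with this comparison. The 9 neutrophil genes summed to 4669 CPM in cycling and 46779 CPM in noncycling other cells and were all lower, with a median log2 ratio of -3.23. The 5 fibroblast genes summed to 0.393 against 309 CPM and were also all lower, with 4 of them at 0 in the members. Other markers were higher, with sums of 78.1 against 27.0 CPM for T and NK cell genes (higher in all 6 libraries), 47.9 against 5.97 CPM for erythroid genes (higher in 3) and 19.6 against 5.42 CPM for mast cell and basophil genes (higher in 5). The most abundant were Nkg7, Car1 and Mcpt8. The part of these markers in the result was not tested. These 98 cells are called by these genes and given no name.

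**Figure D5:**
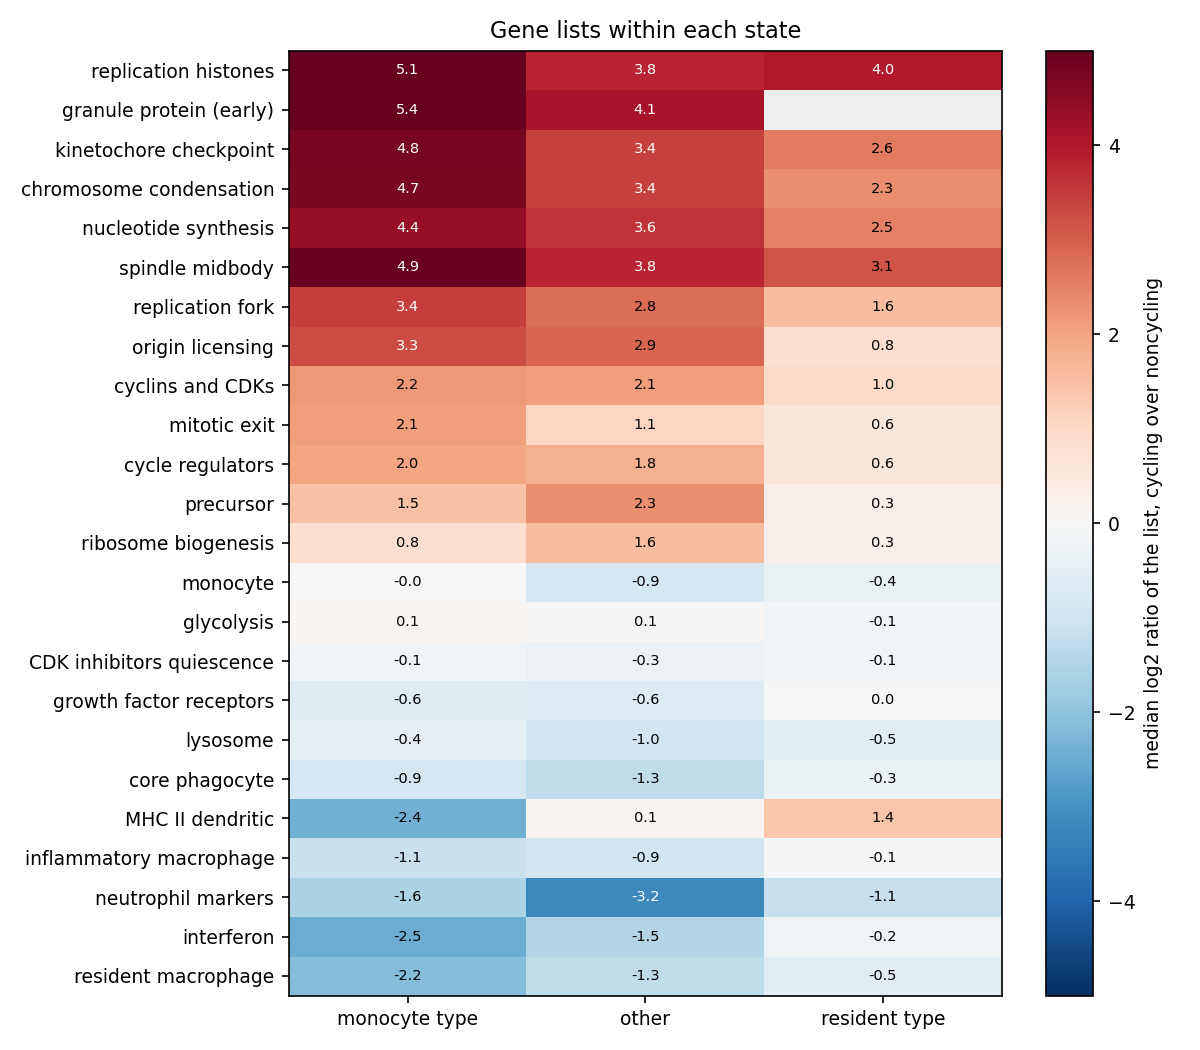
Median log2 ratio of each gene list, cycling over noncycling cells, within each state. Numbers are the medians, and grey marks a list with fewer than 3 tested genes. MHC II genes run from -2.4 in monocyte type to 1.4 in resident type cells.

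D cyclin levels were also read in other cycling cells. In 1483 cycling cells rich in granule UMIs and without Csf1r, Ccnd3 was at 219, 266 and 305 CPM and Ccnd1 at 0, 0.446 and 1.99 CPM by library. In 919 cycling Cd79a cells without Csf1r, Ccnd3 was at 442, 563 and 603 CPM and Ccnd2 at 40.8, 76.8 and 120.4 CPM. Both gates were set with the data in view. At 5000 UMIs granule-rich cells had means of 12.1 replication and 18.6 mitosis UMIs, against 13.8 and 16.9 in the members, and Cd79a cells 28.3 and 34.8.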

How the data were processed

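CD45+ synovial cells of 6 samples were profiled by droplet single-cell RNA sequencing. The authors aligned reads to mm10 with Cell Ranger (version 7 per the submitters' processing notes), removed ambient RNA and doublets, filtered cells and deposited 1 table of whole UMI counts (20394 genes, 32953 cells) that is not scaled for depth. It stores 1724738 zeros. No column of other samples was found.

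Counts were summed per population and scaled to CPM. Ratios used a pseudocount of 1 CPM and genes at 10 CPM or more in either population. Cells were thinned without replacement to 5000 UMIs (seed 1), which left out 2 members and 913 noncycling cells. A further state, which was assigned before the monocyte type, and the gene behind it are not reported here, so the states given do not sum to all cells. Intervals are exact (Clopper-Pearson, 95%) and cover counting error only. Since the table pools samples with no map to treatment, it counted as 1 sample and no test was run. The fold rule was run on counts simulated from a shared noncycling profile with known folds. These had no differences between cells or libraries beyond counting error and no selection on Mki67 and Top2a. The run therefore does not show how the rule does on these cells. Genes were named as those of the rule, up to 6 of highest CPM per list, and the 12 highest and 12 lowest ratios outside the lists, and further genes were chosen after their values were seen. Members and lists were chosen with earlier results of these data known. Alternatives were other limits, depths, scalings and left-out libraries. Scripts ran in Python 3.11.15 (scipy 1.17.1, numpy 2.4.6, pandas 2.3.3), with plots by matplotlib 3.10.9.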

Additional observations from a re-analysis of the deposited data

Results flagged for a closer look

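Some genes went opposite ways in cycling cells of different states. In resident type cells the log2 ratio of cycling over noncycling cells was 1.38 for Cd74, 1.32 for H2-Aa, 1.43 for H2-Ab1, 1.31 for H2-Eb1 and 1.05 for Cxcl2, a neutrophil-attracting chemokine, each higher in all 6 libraries. In monocyte type cells it was -2.43 for Cd74, -2.41 for H2-Aa, -2.39 for H2-Ab1, -2.43 for H2-Eb1 and -2.50 for Cxcl2, each lower in all 6. The difference itself was not tested, and these libraries have no known treatment. Summed neutrophil genes were lower in cycling cells of both states, as given above, and their part was not tested. Among cells with 10 or more Mki67 and Top2a UMIs, 24 of them of resident type, the ratio of Cd74 was 2.36 in resident type and -3.42 in monocyte type cells. In monocyte type cells without a UMI of Elane, Mpo, Prtn3 or Ctsg in the whole cell it was -0.09.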

How the results depend on the processing

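With a limit of 2 Mki67 and Top2a UMIs the shares were 5.71% for members among all cells, 8.63% for all Csf1r cells, 13.5% for monocyte type, 4.42% for resident type and 3.56% for other. At 5 UMIs they were 3.85% for members among all cells, 4.07% for all Csf1r cells, 7.35% for monocyte type, 0.667% for resident type and 0.574% for other. With at least 2 Csf1r UMIs they were 3.86% for members among all cells, 3.74% for all Csf1r cells and 6.11% for monocyte type. As the median library they were 3.87% for members among all cells, 4.69% for all Csf1r cells and 8.21% for monocyte type. Thinned to 2500 UMIs they were 3.005% for all Csf1r cells, 6.84% for monocyte type, 0.316% for resident type and 0.570% for other. Without thinning and over all cells they were 14.7% for all Csf1r cells, 22.5% for monocyte type, 6.8% for resident type and 3.39% for other. With Csf1r counted in the whole cell, an alternative added after the data had been seen, they were 9.59% for all Csf1r cells, 15.6% for monocyte type and 2.5% for other. Leaving out each library in turn gave 4.3% to 4.96% for members among all cells, 5.13% to 7.09% for all Csf1r cells, 9.14% to 11.9% for monocyte type, 1.31% to 2.28% for resident type and 0.799% to 1.19% for other. Monocyte type cells had the highest share of the states given under each of these settings. The number of genes higher in the members was 811 to 906 and lower 599 to 677 without each library. It was 534 and 396 with a pseudocount of 10 CPM, 344 and 354 with a minimum of 50 CPM, and 368 and 101 without cells that held a UMI of Elane, Mpo, Prtn3 or Ctsg, an alternative added after the data had been seen that leaves fewer cells. Other scalings, depth windows and limits stayed within 1.5 times. Without those cells the log2 ratio changed sign for Cd74 (0.62), H2-Ab1 (0.63), H2-Aa (0.58), H2-Eb1 (0.56), Mrc1 (0.21), Cxcl2 (0.046), Cxcl9 (0.35), the median of the MHC class II list (0.62) and Ccnd1 in monocyte type cells (0.56). Without cells of 10 or more Retnlg UMIs it changed sign for Lcn2 (0.50) and Mmp8 (0.31). The causes were not tested. No paired analysis was possible because the replicate numbers in the labels could not be tied to the library numbers. Cycling and noncycling cells were compared within each library by direction only and were not tested, since the rule itself separates them. Shares near 1% rest on few cells, 9 in other and 32 in resident type cells. The neutrophil background of 0.892%, whose gate did not exclude cycling cells, limits what can be read from these shares.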
